A study of Mus musculus with 32 samples.

Results

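The translation initiation and elongation factors of the mouse embryo were followed through zygotic genome activation, the stage at which the embryo starts to transcribe its own genome, and after inhibition of histone acetyltransferases or histone deacetylases. The members were all protein-coding genes whose symbol in GENCODE M21 begins with Eif1 to Eif6 or with Eef1 or Eef2. This rule found 68 genes among 21897 protein-coding genes matched to the annotation and 55385 genes listed in all, and it used no measured value. A further 11 genes with such symbols were not protein-coding and were left out. Members were sorted into roles by symbol, so that Eef1e1 (elongation factors) and Eif1ad (start codon selection) are grouped by name, not by a shown function. The 68 members comprised 7 genes for start codon selection and subunit joining, 6 for delivery of the initiator tRNA, 5 subunits of the exchange factor eIF2B, 4 kinases of eIF2α, 14 subunits of eIF3, 12 genes of the eIF4 family for cap binding, scaffold and helicase (headed eIF4F in the plots, although Eif4a3, Eif4g2 and Eif4e2 act outside that complex), 4 inhibitors or partners of eIF4E, 3 genes for eIF5A and eIF6, 7 elongation factors and 6 modifiers of elongation factors.

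Total RNA was sequenced from 16 libraries in 8 groups of 2. All embryos were wild type and were made by in vitro fertilization of oocytes from B6D2F1/J females with sperm from B6D2F1/J males, both parents being 6 to 8 weeks old. One set of embryos received 10 µM A-485, an inhibitor of the acetyltransferase activity of CBP and p300, from 4 to 20 h post insemination and was collected as zygotes, early 2-cell (2C) embryos or late 2C embryos, each beside embryos given the solvent DMSO. Zygotes precede the 2C stage, so that those collected as zygotes had a shorter exposure. A second set received 50 nM trichostatin A (TSA), an inhibitor of histone deacetylases, from 8 to 28 h post insemination and was collected at late 2C beside DMSO controls of its own. The number of embryos pooled in a library is not given in the labels, and nothing in them says that the 2 libraries of a group came from separate fertilizations, so that p-values measure only the spread between these samples, which may be technical.

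Translation of an mRNA starts when eIF4F binds its cap and a small ribosomal subunit carrying eIF3 and the initiator tRNA, held by eIF2, scans to the start codon, and eIF2B recharges eIF2 for the next round. The elongation factor eEF1A brings each aminoacyl-tRNA to the ribosome, and eEF2 moves the ribosome along by a codon. The oocyte stores mRNAs and ribosomes, so that the first divisions run on maternal translation factors, until their mRNAs are degraded and the embryo's own transcripts take over at the 2C stage.

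Promoters of the 5 members called with the largest fall in late 2C embryos after A-485 are shown first, because the accounts of the stages and of the inhibitors turn on them, together with that of Eif1b, a start codon selection factor whose mRNA fell at both embryonic steps. Each line runs 5′ to 3′ from 160 bases before to 20 bases after the annotated start of transcription, from RefSeq on GRCm38.p6, and capitals mark CCGGAAG, the core bound by ETS factors, or CCGCCC, the core bound by KLF and SP factors, on either strand. Eif3g and Eif3c encode subunits of eIF3, Eif2b4 and Eif2b5 encode subunits of eIF2B, and Eif4a3 encodes an RNA helicase of the exon junction complex.
Eif3g (chr9:20898571-20898750, minus strand): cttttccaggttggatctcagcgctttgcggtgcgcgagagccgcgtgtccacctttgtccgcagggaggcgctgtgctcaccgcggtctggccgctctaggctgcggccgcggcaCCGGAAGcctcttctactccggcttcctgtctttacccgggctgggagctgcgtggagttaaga
Eif2b4 (chr5:31193120-31193299, minus strand): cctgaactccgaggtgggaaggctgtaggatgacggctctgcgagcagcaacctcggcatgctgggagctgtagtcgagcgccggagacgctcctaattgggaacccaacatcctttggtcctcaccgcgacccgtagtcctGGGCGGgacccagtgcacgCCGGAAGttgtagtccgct
Eif3c (chr7:126566347-126566526, minus strand): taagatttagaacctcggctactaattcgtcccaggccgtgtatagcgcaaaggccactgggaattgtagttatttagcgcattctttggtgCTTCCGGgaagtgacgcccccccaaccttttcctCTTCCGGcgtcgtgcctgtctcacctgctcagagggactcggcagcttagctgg
Eif4a3 (chr11:119300024-119300203, minus strand): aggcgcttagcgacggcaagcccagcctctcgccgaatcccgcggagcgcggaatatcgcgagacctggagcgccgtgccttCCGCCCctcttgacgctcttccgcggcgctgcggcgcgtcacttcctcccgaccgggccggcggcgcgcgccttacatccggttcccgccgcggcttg
Eif2b5 (chr16:20498657-20498836, plus strand): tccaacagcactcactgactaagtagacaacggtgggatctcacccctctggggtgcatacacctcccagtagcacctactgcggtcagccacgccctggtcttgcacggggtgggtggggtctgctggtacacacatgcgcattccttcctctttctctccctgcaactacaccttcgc
Eif1b (chr9:120492446-120492625, plus strand): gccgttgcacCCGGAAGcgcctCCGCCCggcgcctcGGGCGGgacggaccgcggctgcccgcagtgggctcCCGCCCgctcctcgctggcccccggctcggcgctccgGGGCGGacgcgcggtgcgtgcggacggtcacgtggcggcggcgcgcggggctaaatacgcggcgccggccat
CCGGAAG began at position -44 in Eif3g, at positions -68 and -34 in Eif3c, at position 2 in Eif2b4 and at position -150 in Eif1b, counted from the start of transcription. Eif2b5 held neither motif in these bases.

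The libraries held 13206163 to 32585987 expected counts, with the fewest in late 2C embryos after A-485. Members took 0.911% to 0.927% of the counts in DMSO zygotes and 0.701% to 0.733% in early 2C, and 1.01% to 1.10% in late 2C embryos given DMSO. The share was 0.511% to 0.518% in late 2C after A-485 and 0.559% to 0.562% after TSA. Changes between groups are given below as CPM, the counts scaled to library size after trimmed mean (TMM) normalisation, and levels of different genes are compared only per length, as FPKM. A gene was called when its adjusted p-value in edgeR's quasi-likelihood test was below 0.05, its change was at least 2-fold and its mean FPKM reached 1 in a group compared.

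In DMSO zygotes the most abundant member per length was Eif4e1b, the oocyte form of the cap-binding protein, at 799 FPKM, followed by Eef1a1 at 575 FPKM, Eif4enif1, which holds eIF4E in repressed mRNPs, at 389 FPKM and Eif2s2, the β subunit of eIF2, at 290.2 FPKM. Eif4e1b still led in early 2C embryos at 576 FPKM. At late 2C it stood at 185 FPKM, below Eif5, the GTPase activator of eIF2, at 413 FPKM and Eif4g2, a scaffold for initiation without the cap-binding protein, at 403 FPKM. The median over all 68 members was 29.4 FPKM in zygotes, 13.7 FPKM in early 2C and 32.1 FPKM in late 2C embryos given DMSO, while the number of members with a mean of at least 1 FPKM was 58, 61 and 62.

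Between the DMSO zygote and the early 2C embryo, 8 of 14 eIF3 subunits, 3 of 5 eIF2B subunits and 3 of 6 elongation factors fell. Of 65 members tested, 21 were called lower and 6 higher, where 14.9% of all genes tested were called lower and 11.2% higher. At 1 FPKM or more in a group, 34.4% of members and 24.8% of protein-coding genes were lower. The members' median log2 fold change was -0.37, beside -0.12 over all genes with at least 1 FPKM. Scaling to the 13 protein-coding genes of the mitochondrial genome in place of TMM gave 48 lower and 2 higher. It moved the median over all genes to -1.45. The difference between the members' median and that of all genes was -0.25 with TMM and -0.28 with mitochondrial scaling. A scaling shifts all genes nearly alike, so this difference could hardly have changed. Mitochondrial genes took 0.955% and 1.06% of the counts in the zygote libraries and 2.27% and 2.49% in early 2C, and the 7 marker genes of the oocyte and zygote, of which 5 fell, summed to 1948 to 2182 and 1543 to 1587 FPKM. The part of these measures in the members' changes was not tested.

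In eIF3, the largest initiation factor, no subunit was called higher at this step. Eif3i had the highest value, 0.68 on the log2 scale, short of 2-fold. Eif3e had 115 and 112 CPM in the 2 zygote libraries and 7.8 and 9.1 CPM in the early 2C libraries. The groups were far apart, at -3.77 ± 0.13 on the log2 scale (estimate ± its standard error) with an edgeR adjusted p of 1.3e-10. Eif3m fell by 3.47 on the log2 scale, while Eif3a, the largest subunit and scaffold, stood at 96.9 and 108.5 CPM in zygotes against 114 and 74.8 CPM in early 2C, which overlapped. In eIF2B, 3 of 5 subunits fell, Eif2b3 by 2.92 and Eif2b4 by 2.05 on the log2 scale. Among the elongation factors Eef1d, a subunit of the exchange factor of eEF1A, fell from 63.6 and 65.4 CPM to 10.5 and 10.6 CPM, and Eef1e1 and Eef1g fell by 2.54 and 1.25 on the log2 scale. Eef2, the translocase, was level at 149 and 165 CPM in zygotes and 153 and 149.6 CPM in early 2C.

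The 6 members that rose between zygote and early 2C were Eif1a, Eif2ak3, Eif4ebp1, Eif5a, Eif4g2 and Eif2s3y. Eif1a, a start codon scanning factor, went from 0.7 and 0.6 CPM to 15.2 and 16.2 CPM. Eif2ak3, the kinase PERK that phosphorylates eIF2α under endoplasmic reticulum stress, went from 4.7 CPM in both zygote libraries to 23.8 and 19.4 CPM. Eif2s3y, the Y-linked copy of the γ subunit of eIF2, had 0 counts in both zygote libraries and 32 and 29 counts in early 2C, which is at least 15.0-fold higher when zygotes are set to a floor of 3 counts per library. The rises of Eif4g2 and Eif5a, 1.03 and 1.06 on the log2 scale, were smaller than the shift of all genes under mitochondrial scaling, where their values were -0.30 and -0.27. The calls were near the 2-fold limit and were lost in 5 of 10 alternatives for Eif4g2 and in 3 of 10 for Eif5a.

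From early to late 2C, the direction turned: 30 of 67 members were called higher and 4 lower, where 15.9% of all genes were called higher and 8.92% lower. At 1 FPKM or more, 48.4% of members and 25.4% of protein-coding genes were higher. The members' median was 1.15 on the log2 scale, beside 0.03 over all genes. In eIF3, 11 of 14 subunits were called higher and none lower. Eif3i had the lowest value, -0.66 on the log2 scale, short of 2-fold. Eif3c stood at 42.5 and 35.8 CPM in early 2C and at 497 and 427 CPM in late 2C, a rise by 3.56 ± 0.14 on the log2 scale (edgeR, adjusted p = 2.1e-08). Eif3a rose from 114 and 74.8 CPM to 934 and 732 CPM, and Eif3g from 6.8 and 3.7 CPM to 59.7 and 51.3 CPM. Each late library lay above each early one for these 3 subunits. In eIF2B, 4 of 5 subunits rose, with Eif2b5, its catalytic subunit, going from 7.5 and 8.2 CPM to 59.7 and 65.2 CPM and Eif2b4 from 14.3 and 10.1 CPM to 80.1 and 74.8 CPM.

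Further rises at this step were those of Eif4g1, the main scaffold of eIF4F, by 1.63 ± 0.11 on the log2 scale, of Eif2s1, the α subunit of eIF2 that the stress kinases phosphorylate, by 1.63 ± 0.16, of Eif6, which keeps large ribosomal subunits apart from small ones, by 1.69 ± 0.13, and of Eef2 by 1.18 ± 0.11. Eif2ak3 rose again, to 186 and 153 CPM. The 4 members that fell were Eef2k, the kinase that inhibits eEF2, from 464 and 445 to 100.4 and 107 CPM, Eif1b, Eif4e1b and Eif2ak4, the amino acid sensor GCN2. When the late 2C DMSO libraries of the TSA experiment were used in place of those of the A-485 experiment, 35 members were called higher and 5 lower. Between the late 2C DMSO libraries of the 2 experiments themselves, 0 of 67 members were called by edgeR or by DESeq2, with 15 at an unadjusted p below 0.05. Over all genes, 1.19% were called lower and 0.136% higher in the A-485 experiment. Eif3j1 was lower there by 0.815 on the log2 scale, short of 2-fold (edgeR, adjusted p = 0.0155).

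**Figure D1:**
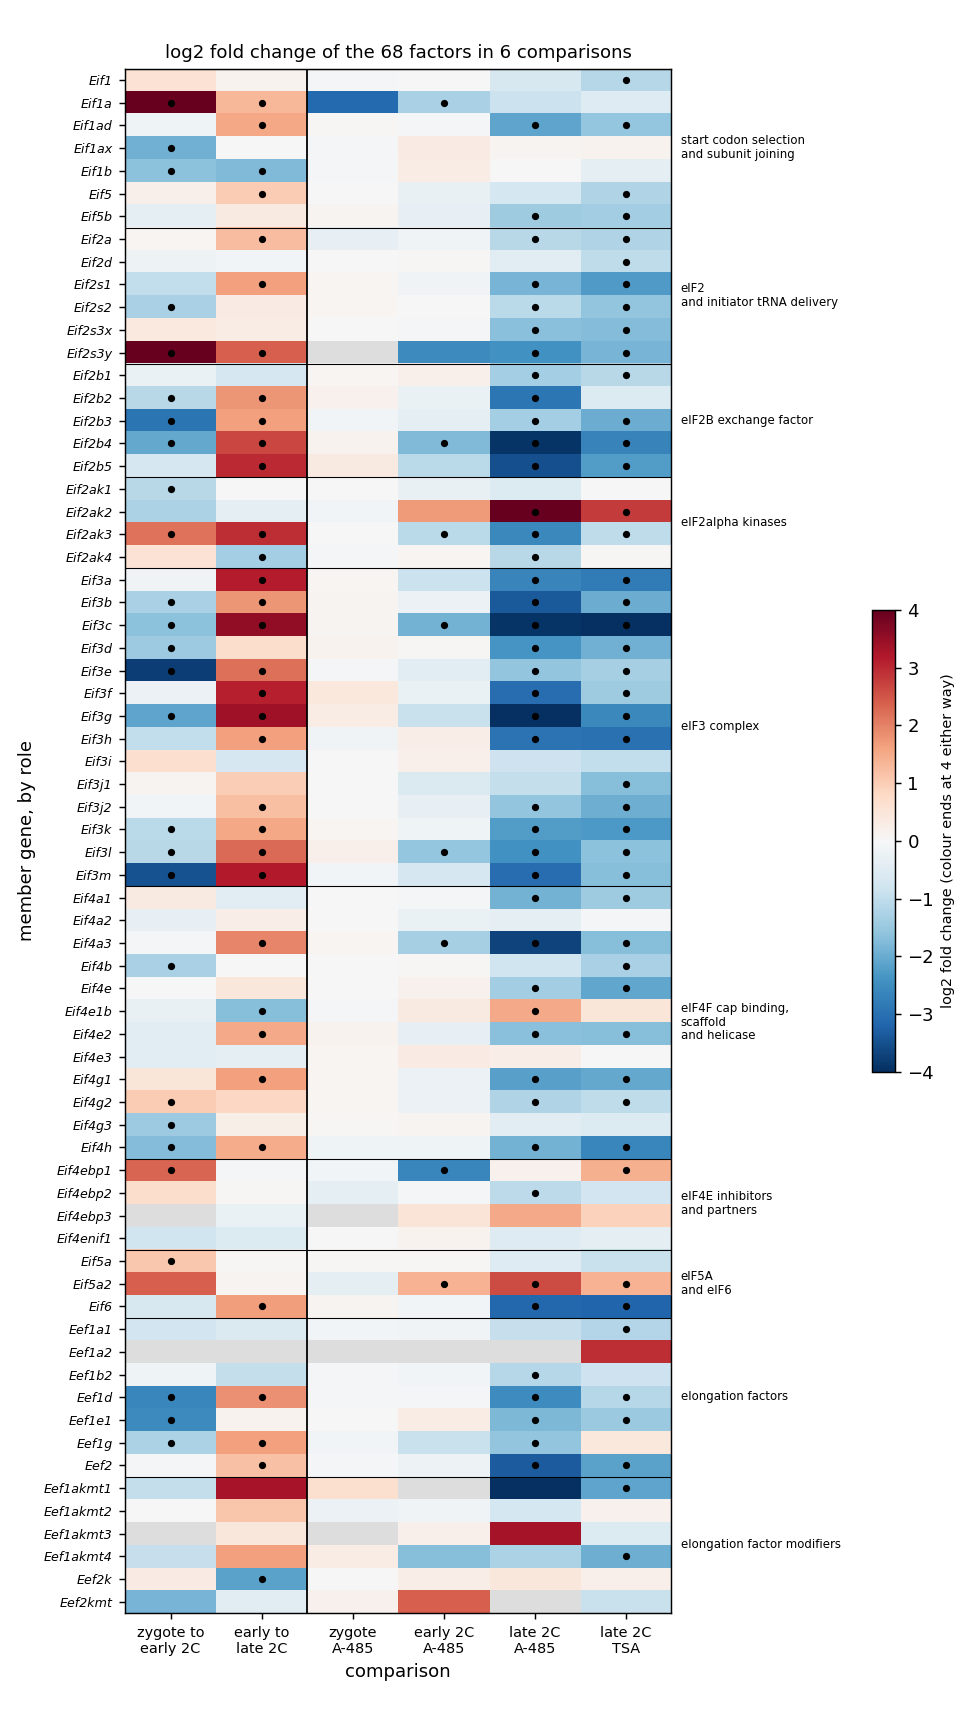
Log2 fold change of each of the 68 members (rows, grouped by role) in 6 comparisons (columns), on a colour scale from blue (lower) to red (higher) that ends at 4 either way. Black dots mark calls and grey marks genes with too few counts to test; the A-485 column is almost blank in zygotes, while 40 of 66 members in late 2C after A-485 and 43 of 68 after TSA carry a dot on blue.

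In zygotes exposed to A-485, no member was called in either direction of 64 tested, by edgeR or by DESeq2, where 0.0657% of all genes were called lower and 0.00548% higher. At an unadjusted p below 0.05 there were 4 members, Eif1a, Eif2b5, Eif3g and Eif4ebp2. Of these Eif1a had the largest difference, with 23.1 and 19.0 expected counts in the DMSO libraries and 2.0 and 3.0 after A-485 (edgeR, adjusted p = 0.83).

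In early 2C embryos, 7 of 66 members were called lower after A-485 and 1 higher, where 7.9% of all genes were called lower and 0.402% higher. The members' share of calls was 10.6% for lower values, near that of all genes, and the median log2 fold change was -0.16 beside -0.01 over all genes. The 7, 11.3% of members at 1 FPKM or more beside 12% of such protein-coding genes and from 6 of the roles, were Eif3c, Eif2b4, Eif3l, Eif4a3, Eif1a, Eif2ak3 and Eif4ebp1, an inhibitor of eIF4E. Eif3c had 42.5 and 35.8 CPM with DMSO and 11.5 and 10.8 CPM with A-485, a difference of -1.88 ± 0.17 on the log2 scale (edgeR, adjusted p = 1e-05). Eif4ebp1 had 3.3 and 4.8 CPM with DMSO and 0.6 and 0.8 CPM with A-485. Eif1a, one of the 6 members that rose at this stage, had 15.2 and 16.2 CPM with DMSO and 5.6 and 7.6 CPM with A-485. The member called higher was Eif5a2, a paralogue of eIF5A, at 2.5 and 4.4 CPM with DMSO and 11.7 and 7.0 CPM with A-485. This call was lost without replicate 1 of either group, at 1.04 and 0.97 on the log2 scale, and those of Eif3l and Eif2ak3 were lost without the first DMSO library, where their log2 fold changes were -1.34 and -0.90.

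In late 2C embryos, most members fell after A-485. Of 66 tested, 40 were called lower and 3 higher, where 16.8% of all genes were called lower and 10.5% higher. Among protein-coding genes with at least 1 FPKM in a group, 26.9% were called lower, beside 61.5% of the 65 members that reached this level. The median log2 fold change was -1.38 over these members and 0.02 over all genes. It was -1.18 beside 0.21 with scaling to total counts and -2.35 beside -0.96 with mitochondrial scaling. The members' median minus that of all genes was -1.39 under each. A scaling shifts all genes nearly alike, so this difference could hardly have changed and is no check of the fall. In these bulk samples, a loss of a member's transcripts and a gain of other RNA in the library cannot be told apart.

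All 14 eIF3 subunits had lower values after A-485, and 12 of them were called. Eif3g had 59.7 and 51.3 CPM in the DMSO libraries and 2.6 and 3.5 CPM after A-485, which is -4.22 ± 0.26 on the log2 scale (edgeR, adjusted p = 1.1e-07). Eif3c had 497 and 427 CPM with DMSO and 29.4 and 33.1 CPM with A-485, which is -3.92 ± 0.14. After A-485 both subunits stood below each early 2C DMSO library, far below late controls. Eif3c was nevertheless higher in both of these late libraries than in either early 2C library given A-485. Eif3b, which binds the small subunit together with Eif3a, was at 96.7 and 75.3 CPM against 8.8 and 8.5 CPM. The 2 subunits that were not called, Eif3i and Eif3j1, had log2 fold changes of -0.82 and -0.94. Eif3j2, the paralogue of Eif3j1, fell by 1.56 on the log2 scale. Since Eif3j1 and Eif3j2 are near-identical, the division of reads between them is uncertain, although the deposited standard deviation of the count estimate was at most 4.06% of the count for Eif3j1 and 2.29% for Eif3j2.

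All 5 subunits of eIF2B fell in late 2C after A-485, with a median of -2.91 on the log2 scale. Eif2b4 went from 80.1 and 74.8 CPM to 6.6 and 3.9 CPM, and Eif2b5 from 59.7 and 65.2 CPM to 6.7 and 4.6 CPM. The group for delivery of the initiator tRNA fell less, with 5 of 6 called and a median of -1.39. Eif2s1 went from 175 and 128.5 CPM to 46.5 and 39.0 CPM. Eif2d, which can deliver the initiator tRNA without eIF2, was not called, at 20.5 and 23.4 CPM against 19.1 and 14.4 CPM.

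**Figure D2:**
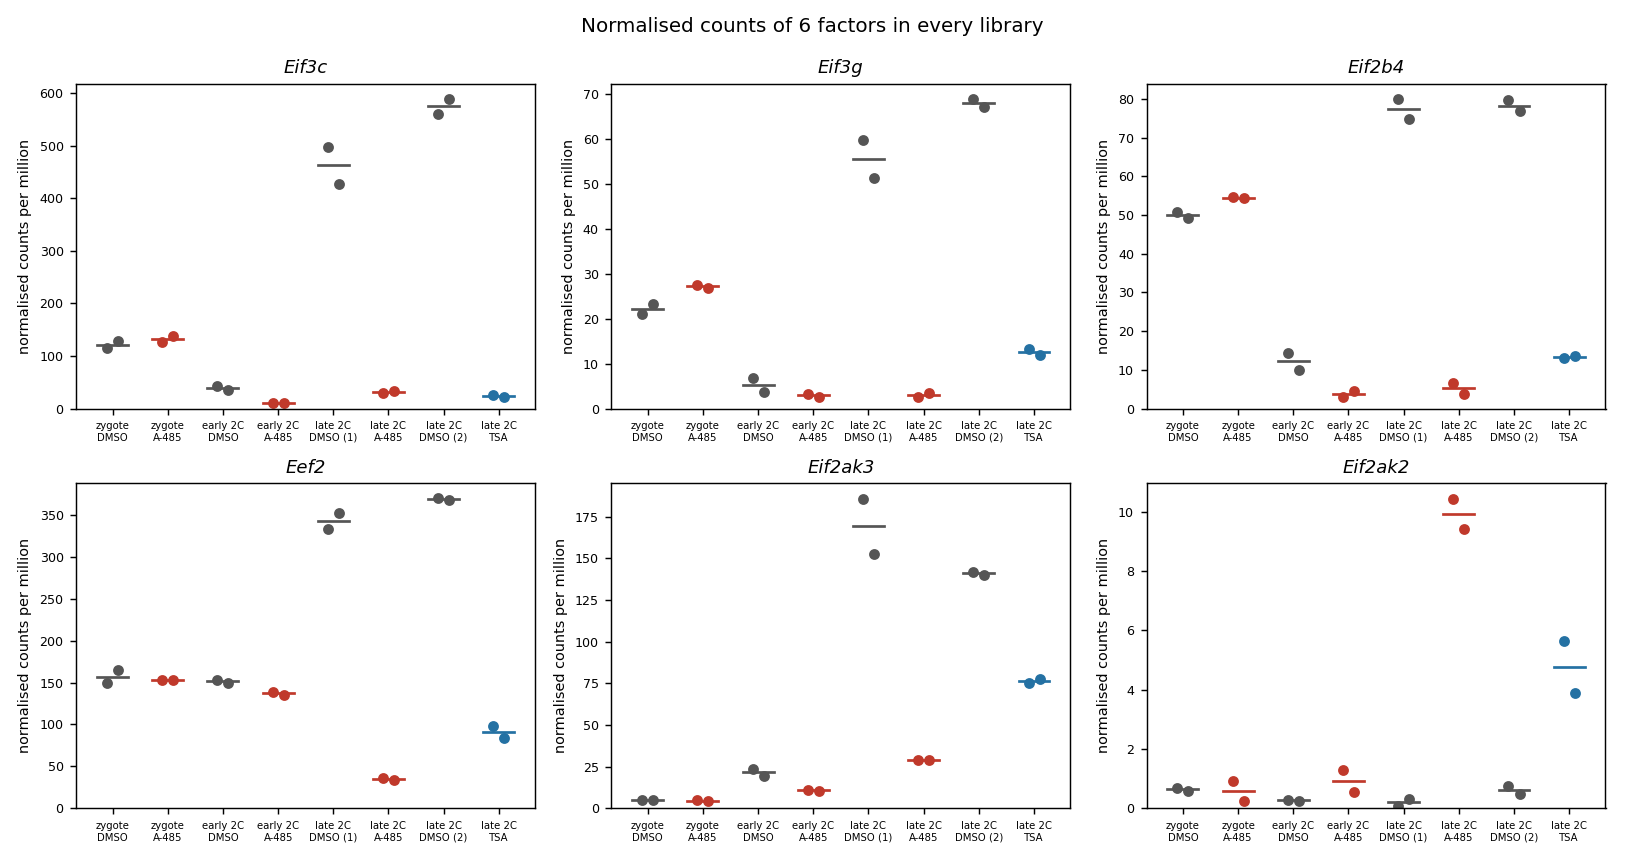
Normalised counts (CPM) in every library for 2 eIF3 subunits, 1 eIF2B subunit, the translocase gene Eef2 and 2 eIF2α kinases; points are libraries, lines are means of 2, grey is DMSO, red A-485 and blue TSA, and DMSO (1) and (2) are the controls of the A-485 and the TSA experiment. Eif3c, Eif3g, Eif2b4 and Eef2 were low in all 4 late 2C libraries from inhibited embryos and high in all 4 late 2C controls, and Eif2ak2 showed the reverse.

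Of the 7 genes for start codon selection and subunit joining, 2 fell at late 2C after A-485, Eif1ad by 2.12 and Eif5b by 1.41 on the log2 scale. Eif1 and Eif5, which set the accuracy of start codon choice, had values of -0.63 and -0.70. Eif1b stood at 16.9 and 16.1 CPM with DMSO and at 14.4 and 18.8 CPM with A-485, which overlapped. Eif1a had -0.85 ± 0.20, short of 2-fold.

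Of the 12 genes of the eIF4 family, 7 fell and 1 rose. The helicase genes differed: Eif4a3 fell from 125 and 135 CPM to 10.2 and 10.1 CPM and Eif4a1, the main helicase of initiation, from 341 and 305 CPM to 93.1 and 84.0 CPM, while Eif4a2 was not called at 135 and 118 CPM against 107 and 95.5 CPM. Among the scaffolds, Eif4g1 fell by 2.18 ± 0.10 and Eif4g2 by 1.20 ± 0.09 on the log2 scale, and Eif4g3 had -0.45.

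The 4 cap-binding paralogues separated in late 2C embryos. Eif4e had 222 and 228 FPKM with DMSO and 65.7 and 100.2 FPKM after A-485. Eif4e1b had 180.2 and 189.9 FPKM with DMSO and 599 and 611 FPKM after A-485, higher by 1.50 ± 0.11 on the log2 scale of counts (edgeR, adjusted p = 6.2e-07). Both libraries lay above the 597 and 556 FPKM of early 2C controls. Early 2C embryos given A-485 already had more Eif4e1b than those controls, by 0.35 on the log2 scale of counts. Whether it changed between the stages under A-485 was not tested. Eif4e2, which represses translation with GIGYF2, fell by 1.68 ± 0.23 from a low level, and Eif4e3 had a log2 fold change of 0.27. In late controls the order by FPKM was Eif4e above Eif4e1b, Eif4e3 and Eif4e2, with no overlap between neighbours; after A-485 Eif4e1b came first, and Eif4e3 at 103.5 and 97.5 FPKM overlapped with Eif4e.

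**Figure D3:**
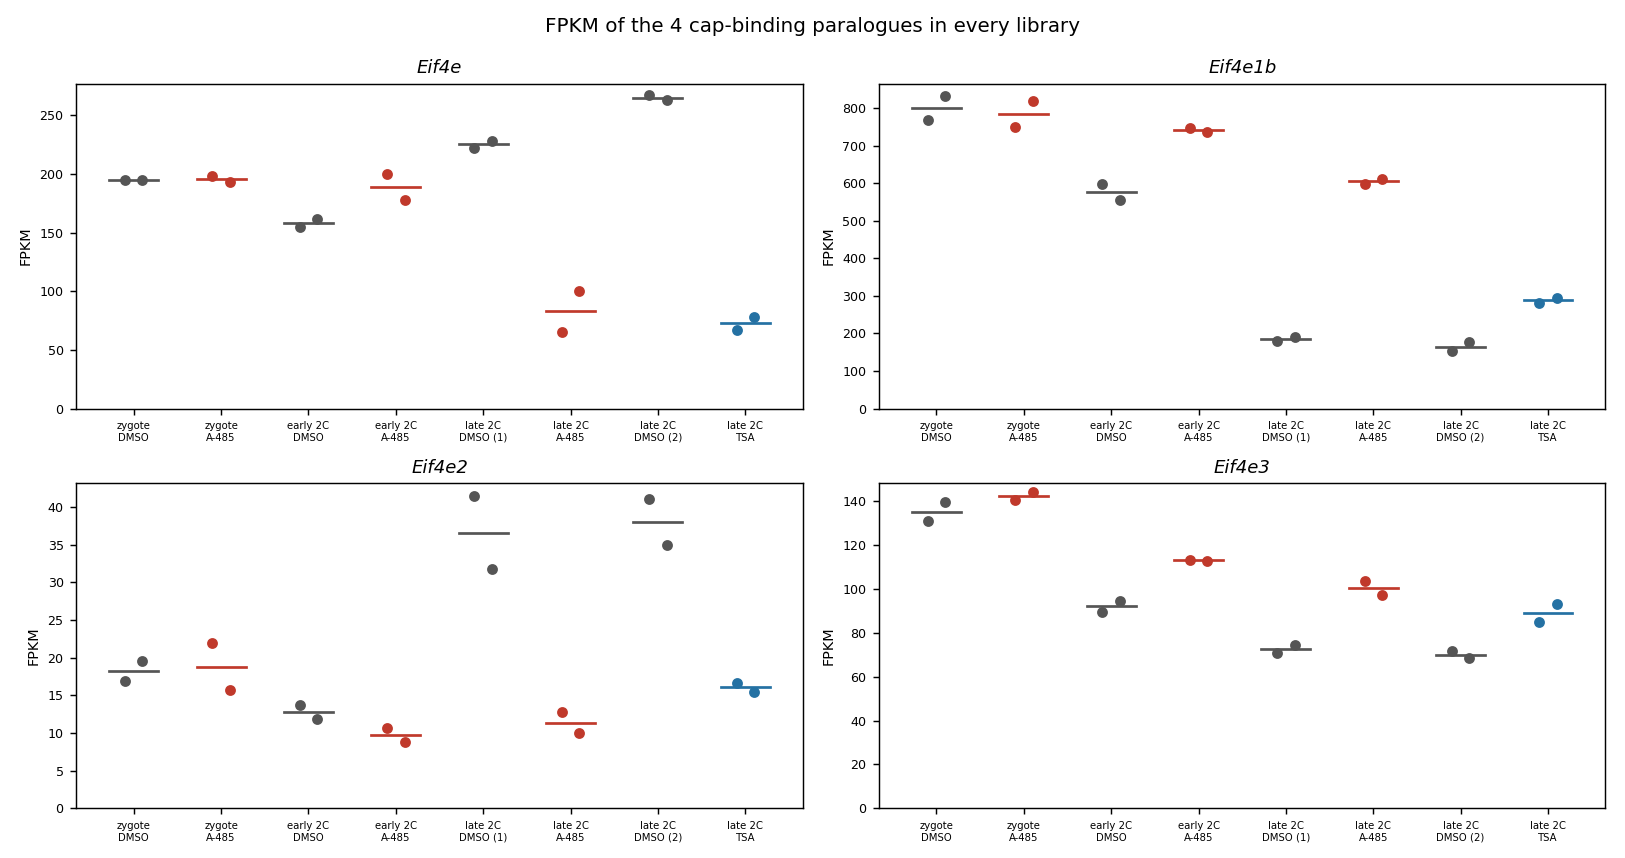
FPKM of Eif4e, Eif4e1b, Eif4e2 and Eif4e3 in every library; points are libraries, lines are means of 2, grey is DMSO, red A-485 and blue TSA. Eif4e1b fell from a mean of 576 FPKM in early 2C to 185 FPKM in late 2C with DMSO but stood at 605 FPKM in late 2C after A-485, while Eif4e was lower at late 2C with either inhibitor.

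Elongation factors fell as well, with 5 of the 6 that reached 1 FPKM called. Eef2 had 333 and 352 CPM with DMSO and 35.9 and 33.5 CPM after A-485, which is -3.34 ± 0.13 on the log2 scale (edgeR, adjusted p = 7.4e-09). Eef1a1, the somatic gene for eEF1A, had 202 and 213 CPM against 101.0 and 126 CPM, and its difference of -0.91 missed the 2-fold limit. Eef1d fell by 2.52, Eef1e1 by 1.80, Eef1g by 1.57 and Eef1b2 by 1.16 on the log2 scale. Eef2k, which had fallen in late controls, stood at 100.4 and 107 CPM with DMSO and at 148 and 146 CPM after A-485, a difference of 0.47 on the log2 scale. Eif6 fell from 131 and 133 CPM to 14.6 and 16.2 CPM, and Eif5a, which helps ribosomes past proline stretches, had -0.53.

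The eIF2α kinases moved in different directions. Eif2ak3 fell by 2.58 ± 0.16 and Eif2ak4 by 1.12 ± 0.17 on the log2 scale, and Eif2ak1, the heme-regulated kinase, had -0.55. Eif2ak2, the kinase PKR that double-stranded RNA activates, was nearly silent with DMSO, at 2 and 6 counts, and had 149 counts in each library after A-485, or 10.4 and 9.43 CPM. The other members called higher were Eif4e1b and Eif5a2, and Eif5a2 had 4.1 and 3.2 CPM with DMSO and 22.4 and 23.5 CPM after A-485. Of the eIF4E inhibitors, Eif4ebp2 fell by 1.05, a call lost in 4 of 10 alternatives, and Eif4enif1 had -0.53.

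Several measures of the libraries moved with this comparison. Mitochondrial protein-coding genes took 5.43% and 5.35% of the counts after A-485 and 2.44% and 2.35% with DMSO. The 7 marker genes of the oocyte and zygote summed to 1365 to 1387 FPKM after A-485 and 723 to 777 FPKM with DMSO. In counts, 1 of these 7 was called higher and 0 lower, with a median log2 fold change of 0.36. Without the 2-fold limit, 3 were higher and 1 was lower. The 7 markers of the 2C embryo summed to 73.9 to 89.3 and 344 to 358 FPKM. The 6 fibroblast markers summed to 14.2 to 16.4 and 0.13 to 0.64 FPKM, with 1 marker above 1 FPKM and Col1a2, Dcn and Lum at 0. The 7 cumulus cell markers summed to 2.44 FPKM after A-485 and 1.69 to 1.9 FPKM with DMSO. In each of these 2 lists 1 marker was called higher after A-485. The 6 sperm markers summed to at most 3.09 FPKM. The part of these measures in the members' changes was not tested.

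The effect of A-485 differed between the early and the late 2C stage for many members. A test of the difference called 30 of 67 members lower and 3 higher at late 2C relative to early 2C, where 7.38% of all genes were called lower and 7.6% higher. The largest such differences in abundant members were those of Eif3g, -3.26 ± 0.43, Eif3h, -3.13 ± 0.27, Eef2, -3.05 ± 0.16, and Eif3b, -3.04 ± 0.28 on the log2 scale. Eef2, for example, had 153 and 149.6 CPM with DMSO and 139 and 135 CPM with A-485 at early 2C, and 333 and 352 against 35.9 and 33.5 CPM at late 2C. Eif4e1b, Eif4ebp1 and Eif2ak2 were the 3 with a higher effect at late 2C.

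TSA also lowered most members at late 2C. Of 68 tested, 43 were called lower and 3 higher, where 13.9% of all genes were called lower and 13.8% higher. Among protein-coding genes with at least 1 FPKM, 22.3% were called lower, beside 67.2% of the 64 members at that level. The median log2 fold change of these members was -1.37, beside -0.03 over all genes. With scaling to total counts, 32 members were called lower, and the median was -1.02 beside 0.32 over all genes.

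After TSA, 13 of 14 eIF3 subunits fell, and the remaining one, Eif3i, was just short of 2-fold. Eif3c had 560.1 and 589 CPM with DMSO and 26.1 and 22.6 CPM with TSA, the largest fall among the members after TSA, at -4.69 ± 0.09 on the log2 scale (edgeR, adjusted p = 1.1e-09). Eif3a went from 960.0 and 987 CPM to 151 and 154 CPM, and Eif6 from 167 and 159 CPM to 19.6 and 20.3 CPM. All 6 genes for delivery of the initiator tRNA fell, Eif2s1 by 2.28 on the log2 scale and Eif2d by just over 2-fold, a call lost in 6 of 10 alternatives, as did 4 of 5 eIF2B subunits, 8 of 12 eIF4 family genes, among them Eif4h, a cofactor of eIF4A, by 2.62 and Eif4e by 2.07, and 4 of 6 elongation factors. The 3 members called higher were Eif2ak2, from 0.7 and 0.5 to 5.6 and 3.9 CPM, Eif5a2, from 10.2 and 6.9 to 24.2 and 25.4 CPM, and Eif4ebp1, from 2.8 and 3.2 to 9.6 and 8.0 CPM. Eif4e1b had 0.48 ± 0.08, short of 2-fold. Mitochondrial protein-coding genes took 3.66% and 3.72% of the counts with TSA and 2.71% and 2.39% with DMSO. The maternal markers summed to 714 to 746 and 550 to 568 FPKM. In counts, however, 1 of these 7 was called lower and 0 higher, with a median log2 fold change of -0.10. The 7 markers of the 2C embryo summed to 545 to 579 FPKM with TSA and 202 to 248 FPKM with DMSO. The 6 fibroblast markers summed to 5.51 to 8.07 and 0.38 to 1.73 FPKM, with 2 called higher and Dcn and Lum at 0. Hba-a1 and Alas2, genes of red blood cells, had 7.85 and 5.84 FPKM and 1.34 and 1.11 FPKM with TSA and at most 0.21 FPKM with DMSO, and both were called higher, while Hbb-bs and Hbb-bt were at 0. The part of these measures in the members' changes was not tested.

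The A-485 and TSA comparisons share no library. Of the 40 members lower after A-485, 35 were also lower after TSA, which is 87.5% of the first list and 81.4% of the second. Over all genes the same shares were 62.8% of 3824 and 73.9% of 3247. The 5 members past the limits for a call after A-485 and not after TSA were Eef1b2, Eef1g, Eif2ak4, Eif2b2 and Eif4ebp2, and the 8 past them after TSA and not after A-485 were Eef1a1, Eef1akmt1, Eef1akmt4, Eif1, Eif2d, Eif3j1, Eif4b and Eif5. The test of the difference between the inhibitors called Eef1g, Eif2ak4 and Eif2b2 of these 13, and Eef1a1 and Eif3j1 were just short of 2-fold after A-485, at -0.91 and -0.94. Of 35 members called higher from early to late 2C with the DMSO libraries of the TSA experiment, 29 (82.9%) were lower after A-485, which is 72.5% of the 40, beside 65.7% and 70% over all genes. The DMSO libraries of the A-485 experiment gave 30 risers, of which 27 (90%) were lower after TSA, or 62.8% of the 43, beside 67.5% and 67.3% over all genes.

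The test of the difference between the 2 inhibitors called 13 of 68 members lower with A-485 than with TSA and 2 higher, where 10.8% of all genes were called lower and 2.7% higher. At 1 FPKM or more, 20% of members and 18.1% of protein-coding genes were lower, so that the members' share was near that of all such genes. The clearest was Eif4a3, which had 10.2 and 10.1 CPM after A-485 and 46.1 and 43.1 CPM after TSA, from controls of 125 and 135 and of 124 and 144 CPM, a difference of -2.11 ± 0.18 on the log2 scale (edgeR, adjusted p = 2.1e-07). Eif2b2, the β subunit of eIF2B, had 0.9 and 2.8 CPM after A-485 and 9.7 and 10.5 CPM after TSA, from controls of 14.8 and 12.4 and of 13.8 and 13.0 CPM, a difference of -2.47 ± 0.51. Eef1g had 5.1 and 8.5 CPM after A-485, below its controls of 19.6 and 20.1 CPM, but 29.3 and 24.0 CPM after TSA, above its controls of 19.4 and 17.1 CPM. The 2 members with a higher effect of A-485 were Eif2ak2 and Eif5a2, both raised by either inhibitor, and the controls of Eif5a2 differed between the experiments, with 4.1 and 3.2 against 10.2 and 6.9 CPM. No gene for initiator tRNA delivery or start codon selection was called in this test. A-485 was given from 4 to 20 h and TSA from 8 to 28 h, so that inhibitor and time of exposure cannot be told apart.

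**Figure D4:**
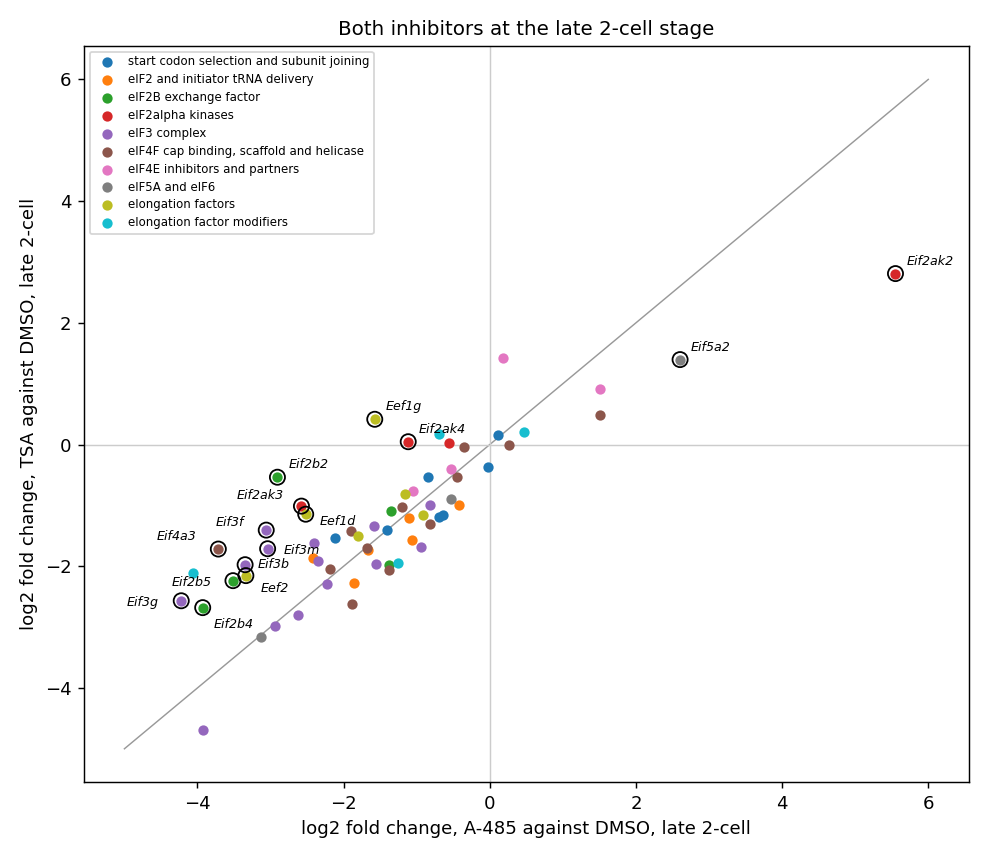
Log2 fold change at late 2C after A-485 (horizontal) and after TSA (vertical) for the 65 members with at least 1 FPKM, coloured by role, with the line of equal change. The 15 named and circled members differed between the inhibitors in the interaction test; 13 of them lie above the line on the left, where A-485 lowered them more, and most points lie to the lower left of the origin.

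Open chromatin at the promoters was taken from the deposited ATAC-seq peak lists, which the authors called over both replicates, so that there is 1 list per condition and no test. In early 2C embryos 49 of 68 members had a peak within 1 kb of an annotated start with DMSO and 51 with A-485. Of the members with at least 1 FPKM in early 2C, 75.4% had a peak with DMSO and 77% with A-485, beside 54.7% and 66.1% of 10364 protein-coding genes at that level. At late 1-cell the numbers were 35 members with DMSO and 33 with A-485. Of the members with at least 1 FPKM in early 2C these were 52.5% and 47.5%, beside 43.7% and 42.5% of the protein-coding genes. The DMSO list held 10214 peaks at late 1-cell and 27693 in early 2C, and the A-485 list held 7094 and 13712. Gains of a promoter peak were not counted over all genes. Between late 1-cell and early 2C with DMSO, 15 members gained a promoter peak, among them Eif2b5, Eif3c, Eif3f, Eif4g1 and Eif6, and Eif3g lost the one it had.

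Of the 40 members lower at late 2C after A-485, 31 had a promoter peak in early 2C embryos with DMSO, and 31 had one with A-485. Over protein-coding genes with at least 1 FPKM in early 2C the shares with a peak were 54.7% and 66.1%. The Eif3c promoter was covered by a peak at chr7:126566258-126566833 (GRCm38) with a fold enrichment of 9.49 with DMSO and by one of 7.23 with A-485, and that of Eif2b4 by peaks of 5.80 and 7.23. Eef1e1, Eif1ad, Eif3k, Eif4enif1 and Eif4g3 had a peak in early 2C with DMSO only. The 11 members with no peak within 1 kb in any list included Eif4e1b, Eef2k and Eif1b, which are abundant in zygotes, and Eif3b, Eif3d and Eif3l, which fell after A-485. Within 2.5 kb, Eif3b, Eif4e1b and Eif4ebp3 of these 11 had a peak in early 2C with DMSO and not with A-485. Over all members at that distance, 8 had one with DMSO only and 7 with A-485 only.

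The RefSeq promoter windows, 250 bases before to 50 after each start, matched 52 of the 68 members. CCGGAAG was in the windows of 17 members, 32.7%, beside 9.93% of 27025 genes, and counted per window it was in 29.9% of the members' 67 windows and in 8.86% of 32851. CCGCCC was found in 39 members, 75%, beside 38.2% of genes. The 27025 genes were taken whether or not they were expressed in these embryos. No share over expressed genes was computed, so that the excess cannot be assigned to the members rather than to expressed genes. Of the other motifs searched on both strands, TATAAA was in 5 members (9.62%, beside 15.7% of genes), the core motif of YY1 in 2 (3.85%, beside 0.995%), that of NRF1 in 1 (1.92%, beside 1.07%) and TCAAGGTCA, the core of NR5A receptors, in 0 (beside 0.466%). A C followed by 4 pyrimidines within 3 bases of the start, as in mRNAs whose translation follows mTORC1, was in 10 members, 19.2%, beside 13.5% of genes, and these included Eef1a1, Eif4g1, Eif3b and Eif3f. CCGGAAG and CCGCCC can share bases only at their ends, and the motifs were chosen after values of these genes had been seen.

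Other genes of translation were read from lists of related factors, to be set against 16.8% of all genes tested called lower after A-485 and 13.9% after TSA, or 26.9% and 22.3% of protein-coding genes with at least 1 FPKM. Of 19 cytosolic tRNA synthetases, 12 fell at late 2C after A-485 and none rose, among them Rars by 3.31 and Hars by 3.16 on the log2 scale, and 8 fell after TSA. Of 11 genes of mTORC1 and its kinases to translation, 6 fell after A-485, among them Rptor, the adaptor of mTORC1, by 2.37, and 4 fell after TSA. Of 9 termination and recycling factors, 4 fell after A-485 and 5 after TSA, among them Gspt1, the release factor eRF3a, by 1.80 and 2.28. Of 6 poly(A)-binding proteins and partners, 2 fell after A-485, Pabpc1 by 3.57 and Pabpc4 by 2.65, and 3 after TSA. Of 9 mitochondrial translation factors, 1 was lower after A-485, and 3 were lower and 1 higher after TSA. Whether the lists differ was not tested. Between zygote and early 2C, 12 of the tRNA synthetases fell and 1 rose, and from early to late 2C 8 rose and 3 fell.

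Some members were at the limit of detection. Eef1a2, the muscle and nerve form of eEF1A, had at most 5 counts in any library except 24 and 22 counts after TSA, and Eif4ebp3 had at most 11.4 expected counts. Eef1akmt1 and Eef1akmt3, methyltransferases of eEF1A, and Eef2kmt, that of eEF2, stayed below 3 FPKM in the A-485 experiment. For most members counts and FPKM changed alike. At late 2C after A-485 the change in FPKM exceeded that in counts by a median of 0.17 on the log2 scale. For 6 members the difference between the 2 scales lay more than 1 log2 unit from this median. FPKM divides by an effective length that the authors' quantification set for each library. Eif2b2, Eif2b3 and Eif3f fell on both scales, by 2.91, 1.38 and 3.06 on the log2 scale of counts and by 3.74, 2.24 and 1.77 in FPKM, and Eef1akmt1 was not called. After TSA Eif3f had -1.41 in counts and -1.085 in FPKM, so that its difference between the inhibitors was smaller in FPKM. Between zygote and early 2C Eif2b2 had -1.12 in counts and -0.10 in FPKM, and from early to late 2C Eef1e1 had 0.16 and 1.23. Eif1ax, a paralogue of Eif1a, had 22.2 and 23.4 FPKM with DMSO and 6.16 and 5.68 FPKM after A-485, but 27.1 and 22.6 against 28.2 and 26.6 CPM, with a mean effective length of 1045 bases with DMSO and 4957 bases after A-485. Eif3j1 was higher in FPKM, at 22.8 and 33.7 against 19.8 and 16.6, and lower in CPM, at 39.2 and 42.3 against 89.8 and 62.3.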

How the data were processed

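Total RNA-seq libraries were made with a stranded SMART-Seq kit. The authors trimmed reads with Trimmomatic 0.39, mapped them to GRCm38 with STAR 2.7.8a and deposited expected counts and FPKM per gene from RSEM 1.3.1. ATAC-seq peaks were deposited with their fold enrichment, called by the authors over both replicates with the ENCODE pipeline. Here, expected counts were rounded and tested with edgeR 4.0.16 (R 4.3.3) after TMM normalisation, on genes whose counts over the libraries of a comparison summed to 10 or more, with Benjamini-Hochberg adjustment over all genes tested. Libraries were compared with the 2 of the other group, and differences between effects were tested as interactions. DESeq2 1.42.0 was an alternative. On simulated counts for the early 2C comparison, 195 of 200 changed genes were recovered with 12 false calls among 19724 genes. The changed genes all had a mean of at least 200 counts and changes larger than 2-fold, and no FPKM limit was applied. The simulation therefore does not cover genes with few counts or changes near 2-fold. Promoter peaks lay within 1 kb of a GENCODE M21 start. IDs were matched to M21 without their version (55144 of 55385 genes). H3K27ac files were not used here. Members and gene lists were chosen with earlier results of these data known. Named are, per comparison, up to 6 called members in each direction by size of change with at least 5 FPKM in the higher group, the 8 most abundant members of each DMSO group, the extremes of each role and sets of paralogues; other members were named after their values were seen. A p-value from 2 libraries a group rests on a spread shared across genes. One marker gene is not reported here.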

Additional observations from a re-analysis of the deposited data

Results flagged for a closer look

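The effect of A-485 differed between the early and the late 2C stage, by an edgeR interaction test, in 33 of 67 members tested. Of the members named, the difference between the late and the early effect was 1.24 on the log2 scale for Eif4e1b, -3.26 for Eif3g, -3.13 for Eif3h, -3.05 for Eef2, -3.04 for Eif3b, -2.95 for Eif6 and -2.71 for Eif3f. Both stages were treated over the same hours, and the late 2C embryos were collected after a longer time without the inhibitor.

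The effect of A-485 differed from that of TSA in late 2C embryos, by the same kind of test, in 15 of 68 members. The difference was 1.10 on the log2 scale for Eif5a2, -2.47 for Eif2b2, -2.11 for Eif4a3, -2.1 for Eef1g, -1.76 for Eif3g, -1.76 for Eif3f and -1.67 for Eif2ak3. No group held enough libraries for single libraries to be examined as outliers.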

How the results depend on the processing

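The counts of members called stayed within 1.5 times of the reported ones under DESeq2, scaling to total counts, no filter on low counts and a single fit of all 16 libraries, except in the comparison of the DMSO groups, where 1 member was called with no filter. Scaling to mitochondrially encoded genes gave 48 lower and 2 higher between zygote and early 2C, 54 for the late against the early A-485 effect and 26 for A-485 against TSA. Under it Eif4g2 and Eif5a, called higher at 1.03 and 1.06, had -0.30 and -0.27, and the cause was not tested. In late 2C, scaling to total counts left 35 members lower with A-485 and 32 with TSA, and mitochondrial scaling 57 and 46. Over all genes, the calls at late 2C were 3824 lower and 2406 higher with A-485, and 6874 and 1177 under mitochondrial scaling. With TSA they were 3247 and 3237, and 2384 and 4108 under total counts. Between zygote and early 2C they were 3002 and 2257, and 8196 and 1270 under mitochondrial scaling.

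Leaving out 1 library gave 5 to 9 lower and 0 to 1 higher for A-485 at early 2C, 36 to 40 lower for A-485 and 40 to 43 for TSA at late 2C, 18 to 22 lower and 4 to 6 higher between zygote and early 2C, 29 to 32 higher from early to late 2C, 31 to 40 and 13 to 14 for the 2 tests of differences, and 0 to 2 between the DMSO groups, with 2 without the first and 1 without the second DMSO library of the A-485 experiment. The lone library is then assumed to vary like the others.

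Replicates carry shared numbers, but deviations of same-numbered libraries correlated at only -0.0356 to 0.0314, so the numbers do not pair the samples. A replicate block gave 8 lower and 1 higher at early 2C, 40 and 3 with A-485 and 42 and 3 with TSA at late 2C, 35 and 15 for the 2 tests of differences and 1 between the DMSO groups. Promoter peaks in early 2C numbered 52 with DMSO and 51 with A-485 within 2.5 kb, and 48 and 49 at a fold enrichment of at least 5.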
